A study of Mus musculus with 33 samples.

Results

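Frontal cortex RNA was compared between 5 female offspring exposed in early life to e-cigarette aerosol with nicotine and 6 female offspring exposed to filtered air. These samples were chosen by their titles, which have no M after the number, and they make up 11 of the 33 samples of the series. All were C57BL/6 mice of about 1 month, and the brains were taken within a week of the last exposure. Pregnant dams inhaled the aerosol with the whole body, and after birth the dams inhaled it together with their pups. The cartridges of the nicotine group held 13 to 16 mg of nicotine per ml in a tobacco-flavored liquid. Nicotine therefore came together with the liquid's carrier and flavoring, which the air group did not inhale, and the contributions of the components cannot be told apart in this comparison. A group of 5 females that inhaled aerosol from nicotine-free cartridges of the same brand entered the filter on low counts and the same fit. Apart from that, this group and 17 offspring titled with an M, which are labeled male, are used below only where they are named. The study took 1 pup from each litter, so each sample stands for a separate animal and litter. The p-values measure the spread between samples within the groups, estimated from these 11 samples and the 5 nicotine-free samples together.

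Nicotine acts on nicotinic acetylcholine receptors, ion channels opened by acetylcholine. Most neurons of the frontal cortex are glutamatergic pyramidal cells, and the rest are mainly GABAergic interneurons. The cortex receives most of its acetylcholine from axons of neurons whose cell bodies, and with them most of their messenger RNA, lie below it in the basal forebrain, next to the striatum. Oligodendrocytes wrap cortical axons in myelin mainly after birth.

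The 6 air libraries held 22184221 to 27513174 reads counted on genes (median 23694846.5) and the 5 nicotine libraries 19150562 to 24455739 (median 22288004). Xist, the RNA of the inactive X chromosome, had 2674 to 3777 counts in all 16 libraries without M titles and no Y-linked gene examined had more than 2, so the female label held in each. Of the defining markers of cortex, Slc17a7, the vesicular glutamate transporter of cortical pyramidal cells, reached 2173, 2521 and 2817 CPM (the counts-per-million unit, scaled to the effective library size) as the lowest, median and highest value of the air samples, with lower values in the nicotine samples given below. Markers of regions next to the cortex were also present, and their share in the samples was not tested. 1 library among those labeled male, nicotine replicate 21, had Xist at the female level and went against its label. On the first principal component of all 16 libraries, which held 37.1% of the variance, the air samples lay between -29.1 and -8.93, and nicotine replicates 1, 2, 5 and 6 lay between 8.89 and 17.3. Nicotine replicate 3 lay at -14.9, among the air samples, and counts are therefore also given without it. Counts of each replicate pair differed by more than sampling noise (chi-square per degree of freedom 5.86 to 24.8), so no library was a copy of another.

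Of 15158 genes tested, 651 (4.29%) differed between nicotine aerosol and air at an adjusted p below 0.01 in the quasi-likelihood test of edgeR, and these are the genes called changed below. Expression was higher with nicotine for 300 of them (1.98% of the genes tested) and lower for 351 (2.32%). An unadjusted p below 0.05 was found for 4258 of the 15158 genes. The changes were mostly small: the median log2 fold change was 0.49 among the genes that rose and -0.37 among those that fell, and 44 genes changed by more than 2-fold, 28 upward and 16 downward. The median over all genes tested was 0.004, with 90% of genes between -0.38 and 0.41. In 525 of the 651 genes, no nicotine value lay within the range of the air values. Over all genes tested, the 5 nicotine samples lay above all 6 air samples for 465 genes (3.07%) and below all 6 for 546 (3.6%). Without nicotine replicate 3, 920 genes were called, and without nicotine replicate 2, 226 were called. A total of 195 genes, 101 higher and 94 lower, stayed below the threshold whichever of the 16 libraries was left out. Scaling by the upper quartile gave 614 genes of which 60.6% were higher, against 46.1% here. With the nicotine and air groups fitted alone, 616 genes were called, 502 of them among the 651.

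**Figure D1:**
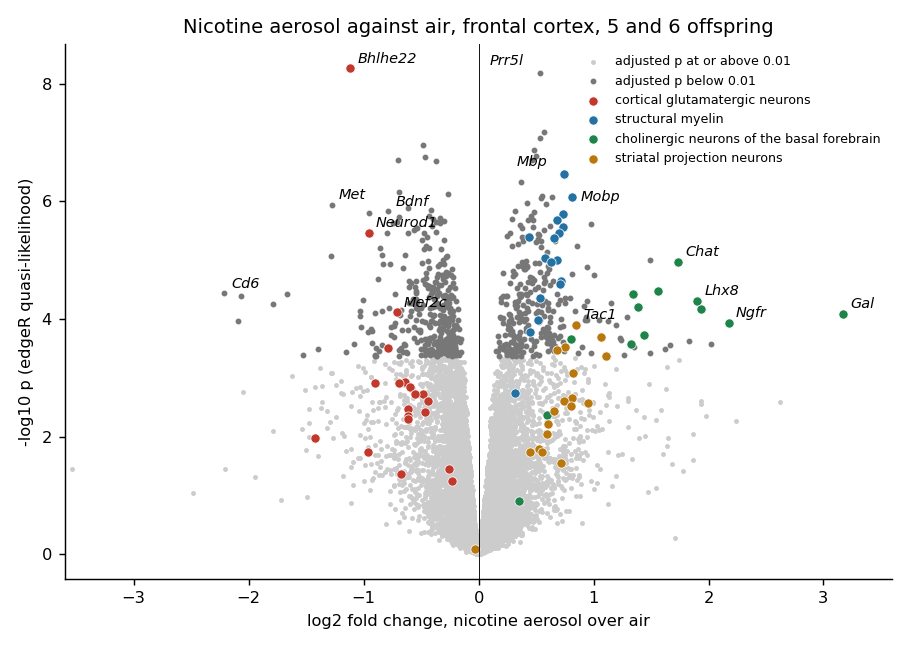
Log2 fold change of nicotine aerosol over air (x axis) against -log10 of the unadjusted p (y axis) for the genes tested. Light points were not called, dark points had an adjusted p below 0.01, and colored points are members of 4 marker lists. Myelin and cholinergic genes lie on the right and cortical glutamatergic genes on the left. A total of 4 genes with a fold change beyond the x axis are not drawn.

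The 76 gene lists used below held 1643 genes, of which 1501 passed the filter on low counts, and counts of list members are out of those that passed. Each count of called members is to be set beside the shares over all genes tested, 4.29% called, 1.98% higher and 2.32% lower. Counts of called list members depended on single libraries: of the 51 lists with a call, 47 had a count that moved by more than 1.5 times, and 27 had no call, with some 1 of the 16 libraries left out. The 4 exceptions were structural myelin, GABA-B receptors and their partners, synaptotagmins and upper cortical layers. In what follows, the lowest, median and highest of the 6 air values are given first, and then the nicotine values in the order of replicates 1, 2, 3, 5 and 6, all in CPM. Bhlhe22, a transcription factor of cortical glutamatergic neurons that guides their areal identity and axon tracts, had the smallest p of all genes. Its levels were 55.2, 73.1 and 80.5 in air and 30.1, 33.001, 37.1, 33.3 and 27.0 with nicotine. All nicotine samples, replicate 3 included, lay well under the lowest air sample. The log2 fold change was -1.12 ± 0.11 (SE) and the adjusted p was 4.9e-05. In bulk tissue, fewer cells of a type and less RNA per cell cannot be told apart, for this gene and for every marker below. The gene lies on chromosome 3 of the mm9 mouse genome, from 17954325 to 17957509 on the plus strand. Prr5l, which encodes a partner of the growth-regulating kinase complex mTORC2, had the smallest p among the genes that rose. It was at 18.6, 20.1 and 20.6 in air and 29.6, 27.0, 27.9, 29.8 and 30.1 with nicotine, a log2 fold change of 0.54 ± 0.05 (SE) (adjusted p = 4.9e-05). The 5 nicotine samples were tightly grouped and did not overlap with air.

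Of the other 9 genes with the smallest p among those that rose, Mbp and Mobp encode myelin proteins. Mob3b, Tmem63a, Efhd1, Pacs2, Evi2a, Frmd8 and Tmem88b made up the rest. Tmem63a, an ion channel opened by mechanical force, was at 30.6, 30.95 and 34.1 in air and 48.2, 45.5, 42.1, 44.4 and 49.5 with nicotine. Pacs2, a sorting protein of the endoplasmic reticulum, was at 179.6, 186 and 191 and 258, 265, 246, 237 and 310.0. The log2 fold changes of these 7 genes ran from 0.37 (Frmd8) to 0.57 (Mob3b), and none of the 7 overlapped between groups. Of the 50-base stretches of the Evi2a transcripts 15.5% also occur in other genes, and of those of Palm2, named below, 20.7%.

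Among the 10 genes that fell with the smallest p, Bhlhe22 was followed by Ak5, Pcdh7, Car10, Palm2, Kctd16, Tbc1d9, Met, Tmem145 and Ildr2. Car10, a catalytically inactive carbonic anhydrase that binds neurexins, was at 114, 133.6 and 158 in air and 79.7, 81.3, 96.4, 78.2 and 71.6 with nicotine (log2 fold change -0.70 ± 0.08 (SE)). Ak5, an adenylate kinase of neurons, was at 157, 171 and 184 and 120.3, 120.2, 123.95, 129 and 113. Kctd16, an auxiliary subunit of the GABA-B receptor, was at 13.99, 16.0 and 17.6 and 11.5, 8.80, 10.2, 10.5 and 7.97. In each of the 10 the groups were apart, and each of the 20 genes named by the smallest p was also called with any 1 of the 16 libraries left out. Their fold changes ranged from -1.28 to 0.81 on the log2 scale.

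The largest fold changes among called genes with a mean of at least 1 CPM belonged, apart from Met, to other genes. Upward these were Ngfr, a receptor of neurotrophins (2.18 on the log2 scale), 4921525O09Rik (2.02), the homeobox genes Gbx1 (1.94) and Lhx8 (1.90), and AI606473 (1.83). Downward they were Cd6, a surface receptor of lymphocytes (-2.21), the tetraspanin Tspan11 (-1.78), the alpha-1D adrenergic receptor Adra1d (-1.53), Tmem215 (-1.28) and Met (-1.28). Cd6 was at 2.13, 3.26 and 4.60 in air and 0.96, 0.206, 1.35, 0.658 and 0.364 with nicotine, which is low in both groups but without overlap. Met, the receptor of hepatocyte growth factor that marks a subset of cortical projection neurons, was at 8.08, 13.2 and 16.4 in air and 4.18, 5.35, 4.63, 5.26 and 7.20 with nicotine. All 5 nicotine samples were lower than every air sample, and the adjusted p was 0.000787.

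To show sequence at the genes the comparison turns on, the 250 bases before the annotated start of 5 of them are given: Prr5l, Mobp and Met, all among the 20 with the smallest p, with Mobp a myelin gene and Met a gene of cortical projection neurons, Chat (cholinergic) and Tac1 (striatal). They are from RefSeq on GRCm38.p6, read 5' to 3' on the gene's own strand. Prr5l has 3 starts there, and the window before 1 of them is given. Capitals mark matches, on either strand, to 5 short motifs: GGGCGG, the GC box, CACGTG, an E-box, ACAAAG, the core bound by Sox factors, TATAAA, the TATA box, and TGACGTCA, the cyclic AMP response element. Bhlhe22 is not shown.
Prr5l: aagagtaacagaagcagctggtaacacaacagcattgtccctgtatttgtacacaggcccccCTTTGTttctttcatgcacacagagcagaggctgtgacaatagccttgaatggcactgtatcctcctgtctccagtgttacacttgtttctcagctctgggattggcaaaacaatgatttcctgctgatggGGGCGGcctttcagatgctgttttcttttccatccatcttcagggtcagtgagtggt
Mobp: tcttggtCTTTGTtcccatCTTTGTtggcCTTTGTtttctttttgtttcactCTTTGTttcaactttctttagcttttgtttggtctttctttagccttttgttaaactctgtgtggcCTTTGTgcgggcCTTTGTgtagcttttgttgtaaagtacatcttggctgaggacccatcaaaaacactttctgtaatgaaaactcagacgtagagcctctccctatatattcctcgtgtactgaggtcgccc
Chat: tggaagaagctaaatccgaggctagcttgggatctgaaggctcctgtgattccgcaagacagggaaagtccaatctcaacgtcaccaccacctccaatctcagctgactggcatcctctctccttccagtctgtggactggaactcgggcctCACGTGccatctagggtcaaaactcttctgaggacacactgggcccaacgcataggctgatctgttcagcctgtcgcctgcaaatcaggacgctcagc
Tac1: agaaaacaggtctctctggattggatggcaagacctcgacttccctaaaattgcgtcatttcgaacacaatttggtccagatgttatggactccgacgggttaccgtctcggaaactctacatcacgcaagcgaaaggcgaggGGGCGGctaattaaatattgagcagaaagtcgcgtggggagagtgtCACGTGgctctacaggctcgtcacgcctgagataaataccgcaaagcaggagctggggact
Met: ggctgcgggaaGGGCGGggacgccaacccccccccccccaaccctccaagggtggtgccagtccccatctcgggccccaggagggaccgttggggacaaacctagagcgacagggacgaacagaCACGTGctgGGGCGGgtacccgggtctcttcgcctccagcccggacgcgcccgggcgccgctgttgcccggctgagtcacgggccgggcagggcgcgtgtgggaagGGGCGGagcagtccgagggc
The Prr5l window is chr2:101883028-101883277 on the minus strand, the Mobp window chr9:120149492-120149741 on the plus strand and the Chat window chr14:32465910-32466159 on the minus strand. Those of Tac1 and Met are chr6:7554811-7555060 and chr6:17463707-17463956, both on the plus strand. The Mobp window holds CTTTGT, the complement of ACAAAG, 6 times, and of 27025 RefSeq promoter windows of that length 16.5% held at least 1 copy and only 1 window held 6 or more. Prr5l has 1 copy of it beside 1 GGGCGG, which 32.9% of windows held. The single CACGTG of Chat, Tac1 and Met is a motif of 6.05% of windows, and none of the 5 windows has TATAAA or TGACGTCA, found in 13% and 1.62%. Met has 24 CpG dinucleotides in its window and a GC content of 74%, against 4 CpG and 40.8% for Mobp. A match describes the letters only. As only 11142 of the 15158 genes tested matched a promoter in the table by symbol, motifs were not compared between sets of genes.

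Markers of cortical glutamatergic neurons had lower levels with nicotine. Of 20 tested, 4 fell, none rose and all 20 had a log2 fold change below 0, with a median of -0.63 (all genes tested: 0.004). Bhlhe22 and Neurod1, both transcription factors of this lineage, Mef2c, a transcription factor active at synapses, and Rtn4r, the receptor of the myelin inhibitor Nogo, were the 4 that fell. Neurod1 was at 13.1, 18.3 and 21.7 in air and 8.83, 9.47, 7.73, 9.87 and 10.2 with nicotine, a log2 fold change of -0.95 ± 0.14 (SE). Mef2c was at 689, 816 and 983 and 449, 474, 589, 534 and 460.3. Neither gene overlapped between groups. The transporter gene Slc17a7, also a member, did not pass and was at 1461, 1464, 2012, 1607 and 1676 with nicotine, all under the air range given above (log2 fold change -0.62 ± 0.18 (SE), adjusted p = 0.0343). The score of the list, its mean log2 CPM, was 6.45 to 6.88 in air and 6.01, 5.76, 6.30, 5.96 and 5.68 with nicotine, so that replicate 3 was nearest to air and all 5 were below. With this score as a covariate no gene of the 15158 was called and 1659 had an unadjusted p below 0.05, against 4258 without the covariate. With 1 of the 16 libraries left out the count of 4 ran from 2 (without air replicate 6 or nicotine replicate 1, 2 or 6) to 7 (without nicotine replicate 3) and 10 (without nicotine-free replicate 1).

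Marker counts are given by layer. Of 16 markers of the upper layers, 3 fell and 1 rose, with a median log2 fold change of -0.38. Rasgrf2, an exchange factor of Ras in upper-layer neurons, was at 173, 199 and 211 in air and 123.5, 153, 136, 146 and 148 with nicotine. Unc5d, a netrin receptor (-0.44), and Kitl, the ligand of the receptor Kit (-0.38), fell by similar amounts, and Mdga1, an adhesion protein that binds neuroligins, rose (0.31). Of 18 markers of the deep layers and subplate, none fell and 1 rose, with a median of 0.03. The one that rose, the transcription factor Foxp2, is also a gene of striatal neurons and was at 16.7, 30.6 and 37.02 in air and 51.1, 53.0, 45.8, 49.8 and 39.7 with nicotine. The difference between the lists was not tested.

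Genes of myelin rose nearly as a whole. Of 17 tested, 16 rose and none fell, with a median log2 fold change of 0.68, and the 17th, the axonal adhesion protein Cntn2, had 0.32 ± 0.09 (SE) (adjusted p = 0.0233). Mbp, myelin basic protein, was at 3947, 4428 and 4832 in air and 7555, 7477, 6884, 6568 and 8528 with nicotine, a log2 fold change of 0.74 ± 0.09 (SE) (adjusted p = 0.000425). Mobp, the gene with the 6 copies of CTTTGT before its start, was at 316, 395 and 411 and 657, 695, 619.8, 677 and 714, the largest change of the list at 0.81 ± 0.11 (SE). In neither did a nicotine sample reach down to the air range, and of the 17 genes only Opalin had overlapping groups. Together the 17 genes took 0.913% to 1.07% of all counts in air and 1.73%, 1.74%, 1.46%, 1.66% and 1.93% with nicotine.

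Other members cover the functions of the sheath. Mag, which binds the sheath to the axon (0.68), Mog, on its outer surface (0.74), and Cldn11, its tight junction protein (0.68), rose along with Cnp, an enzyme that keeps the cytoplasm of the sheath open (0.66). The lipid enzymes Ugt8a (0.70), which makes galactosylceramide, Fa2h (0.70), which hydroxylates its fatty acids, and Aspa (0.51), which releases acetate, rose as well. Mal (0.72), Plekhh1 (0.58), Ermn (0.53), Opalin (0.45) and Pllp (0.44) were also among the 16. With any 1 of the 16 libraries left out 13 to 16 were called. The score was 7.22 to 7.53 in air and 8.04, 8.06, 7.84, 8.02 and 8.16 with nicotine.

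Upstream of myelin, 7 of 15 genes of the oligodendrocyte lineage rose and 1 fell (median log2 fold change 0.36). Myrf, which switches on myelin genes, was at 55.7, 64.2 and 68.6 in air and 93.4, 90.1, 79.8, 81.5 and 99.2 with nicotine. Sox10, a Sox factor that myelin genes depend on, was at 49.5, 54.7 and 57.4 and 79.5, 74.9, 66.2, 65.2 and 75.9. Both were above the air range in all 5 samples. Nkx6-2 (0.68), Tcf7l2 (0.94), Enpp6 (0.59), Olig1 (0.31) and Bmp4 (0.53) also rose. Lingo1, an inhibitor of oligodendrocyte differentiation that neurons express too, fell (-0.64). The markers of precursor cells Pdgfra and Cspg4 were not called: Pdgfra was at 127, 153 and 173 in air and 159, 135, 159, 148 and 154 with nicotine. The count of 8 was between 1 (without nicotine replicate 2) and 4 when any of air replicates 2, 4, 5 and 6 or nicotine replicates 1, 2, 5 and 6 was left out, and 5 without nicotine-free replicate 4 or 5.

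**Figure D2:**
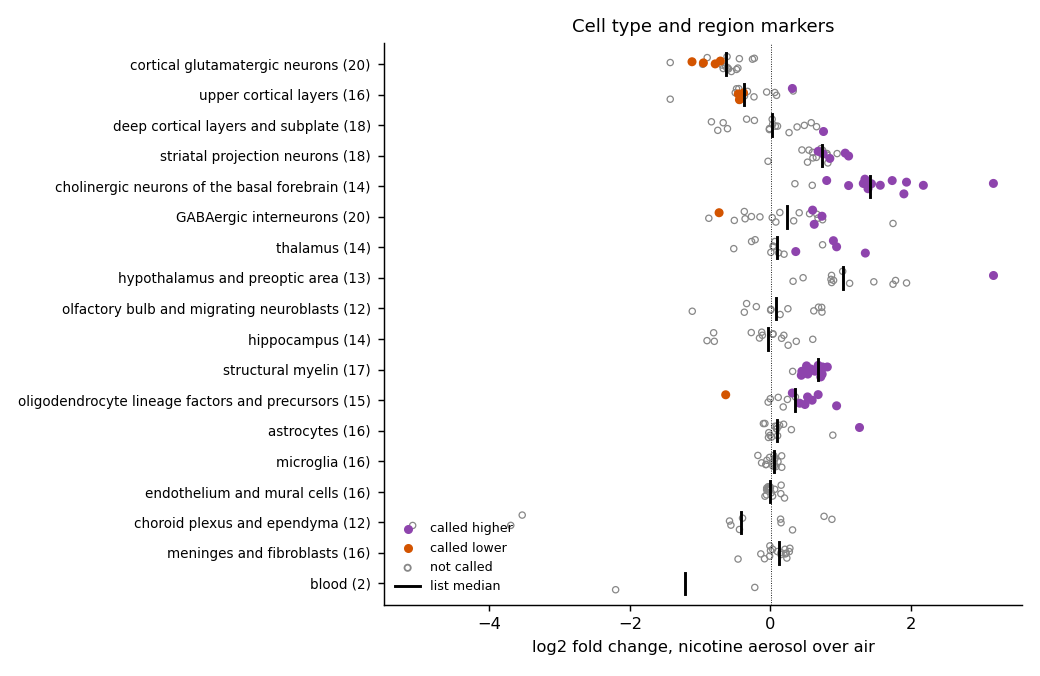
Log2 fold change of nicotine aerosol over air (x axis) of each tested member of the 18 marker lists (rows, number of members in brackets). Filled points were called, open points were not, bars are list medians and the dotted line is the median of all genes tested. Structural myelin lies to the right almost entirely filled, while microglia and endothelium lie near 0.

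Cholinergic genes had the largest median increase of the 76 gene lists. Of 14 markers of basal forebrain cholinergic neurons, 12 rose and none fell, with a median log2 fold change of 1.41. Chat, the enzyme that makes acetylcholine, was at 1.48, 4.08 and 6.17 in air and 14.3, 17.97, 7.15, 12.6 and 14.8 with nicotine, a log2 fold change of 1.73 ± 0.28 (SE) (adjusted p = 0.00162). Slc18a3, which loads acetylcholine into vesicles, was at 2.97, 8.63 and 12.6 and 24.3, 29.9, 15.1, 20.7 and 27.4, and Slc5a7, which takes choline back up, was at 10.3, 24.4 and 36.9 and 70.6, 73.0, 40.2, 57.3 and 65.3. For these 3 genes nicotine replicate 3 was just above the highest air sample, and the other 4 were far above. Ache, which breaks acetylcholine down, was at 43.6, 58.9 and 70.7 and 116, 119, 67.4, 98.2 and 115, and replicate 3 fell within air. Ngfr, a neurotrophin receptor on these neurons, was at 1.96, 6.77 and 10.2 in air and 29.1, 40.1, 7.10, 26.7 and 33.9 with nicotine (2.18 ± 0.44 (SE)). Ngfr values overlapped through replicate 3 alone.

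The transcription factors that specify these neurons rose too. Lhx8 was at 1.13, 3.51 and 6.29 in air and 15.2, 16.3, 6.25, 10.8 and 17.2 with nicotine (1.90 ± 0.35 (SE)). Gbx1 (1.94) and Isl1 (1.11), the peptidase Ecel1 (1.34), and Tacr3, the receptor of neurokinin B (1.32), rose in the same way. Gal, the peptide galanin, was at 0.0755, 0.107 and 0.357 in air and 1.30, 2.73, 0.404, 1.54 and 0.768 with nicotine, with the largest fold change of the called genes named here (3.17 ± 0.62 (SE)) but few reads, between 2 and 8 in air and between 9 and 53 with nicotine. Near 0 in air, Gal passed the filter on low counts only through the exposed groups, and the count and median of the list include it. The members that did not pass were Zic4 (0.60 ± 0.18 (SE)) and Chrm2, a muscarinic receptor (0.35 ± 0.21 (SE)). The score of the list was 1.40 to 2.82 in air and 3.90, 4.12, 2.91, 3.74 and 3.86 with nicotine. The list's count of 12 fell to 1 without nicotine replicate 2, to 4 without nicotine 6, to 5 without nicotine 1 or air 6 and to 6 without air 4 or 5.

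**Figure D3:**
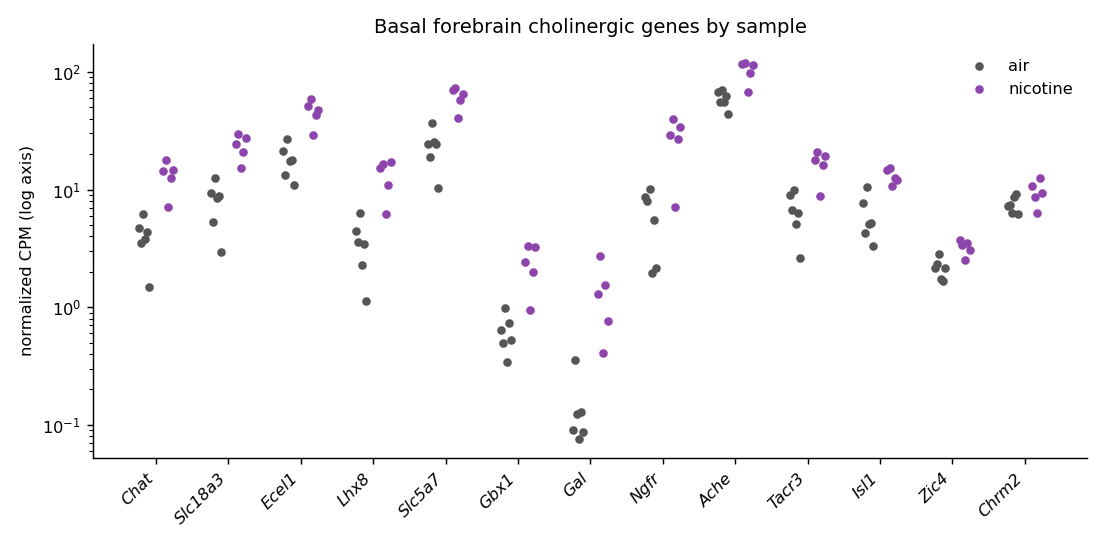
Normalized CPM (log axis) of 13 cholinergic markers in each of the 6 air and 5 nicotine samples. For most genes 1 nicotine sample, replicate 3, lies at the upper end of the air samples and the other 4 lie above it.

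Some markers of other regions also rose. Of 18 markers of striatal projection neurons, 5 rose and none fell (median log2 fold change 0.73). Tac1, the precursor of substance P, was at 43.3, 62.6 and 92.4 in air and 112, 139, 115, 97.4 and 106 with nicotine, and Ppp1r1b, the dopamine-regulated phosphatase inhibitor DARPP, was at 246, 359 and 520.5 and 495, 639, 695, 589 and 570.3. Rgs9 (0.75), which quenches dopamine receptor signals, and the homeobox genes Six3 (1.06) and Isl1 also rose. Penk, the enkephalin precursor (0.82 ± 0.20 (SE)), and the dopamine receptor Drd2 (0.80 ± 0.23 (SE)) were not called at adjusted p = 0.0146 and 0.0315. The striatal score ranged widely in air, from 5.04 (replicate 2) to 6.36 (replicate 4), and was 6.48, 6.63, 6.70, 6.58 and 6.20 with nicotine, so that nicotine replicate 6 overlapped with air. No striatal gene was called without air 5, air 6 or nicotine replicate 1, 2 or 6, and 9 were called without air 4. Between 1 and 3 were called without air 1 or 2, nicotine 3 or 5 or nicotine-free 2, 3, 4 or 5.

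Of 13 hypothalamic and preoptic markers tested, of 20 listed, 1 rose (Gal) and none fell. The filter sums over exposed libraries too, so genes near 0 in air passed it through the groups where they were higher, and no median is given. The hypothalamic peptides oxytocin and vasopressin were low: Oxt was at 0.043, 0.128 and 2.28 in air and 2.64, 3.91, 0.404, 2.68 and 0.485 with nicotine, and neither Oxt nor Avp passed the test. The score of the 13 that passed was -0.74 to 0.87 in air and 1.85, 2.21, 0.12, 1.87 and 0.78 with nicotine. The same limit of the filter holds for this score, and for the median and scores of this list drawn in the figures. Of 14 thalamic markers 4 rose, Tcf7l2, Gbx2 (1.35), Zic1 (0.90) and Plekhg1 (0.36), while Slc17a6, the glutamate transporter of thalamic neurons, was at 43.5, 55.3 and 65.9 in air and 55.1, 67.7, 30.1, 70.5 and 55.5 with nicotine. The thalamic count of 4 was 1 without nicotine 2 or 6 and 2 without air 2, 4, 5 or 6, nicotine 1 or 5 or nicotine-free 5. The part of basal forebrain, striatal or hypothalamic tissue in any of the changes described here was not tested.

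**Figure D4:**
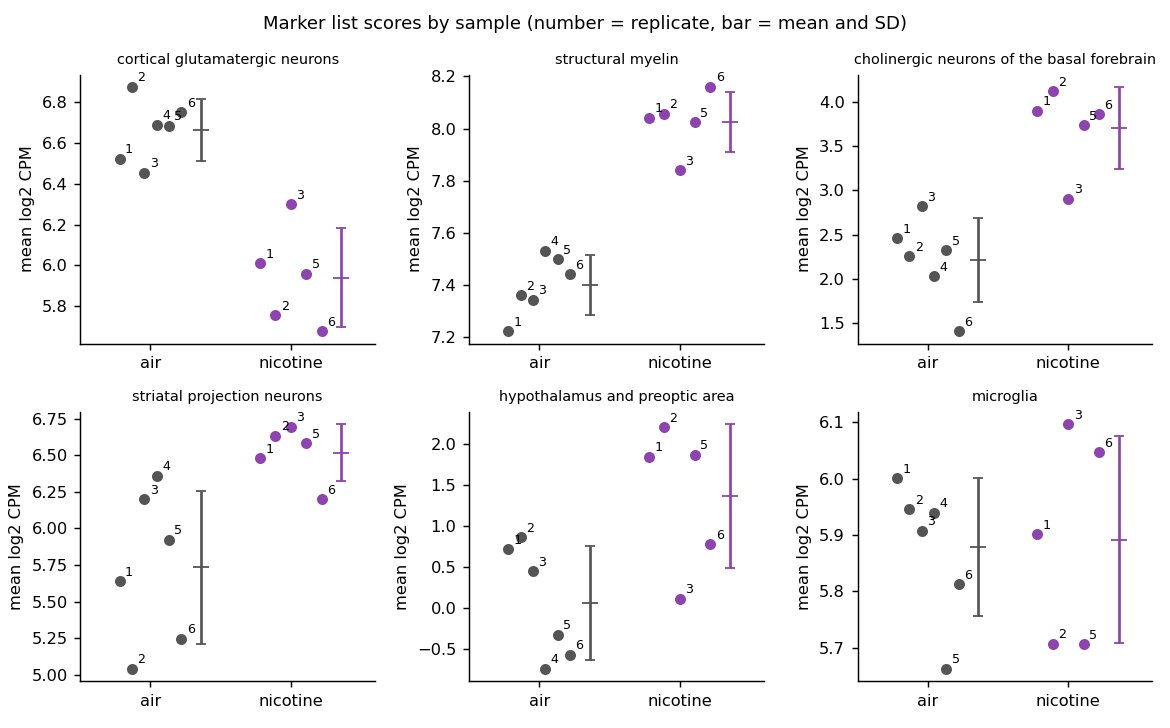
Score (mean log2 CPM, y axes) of 6 marker lists in each sample, with replicate numbers beside the points and bars for the mean and SD of each group. Cortical scores are lower and myelin scores higher in all 5 nicotine samples, cholinergic scores are near air in nicotine replicate 3, and microglial scores overlap.

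Among GABAergic interneuron genes, 3 of 20 rose and 1 fell (median log2 fold change 0.23). Gad2, an enzyme that makes GABA (0.62), Slc32a1, its vesicular transporter (0.60), and the homeobox gene Dlx5 (0.73) rose, and striatal projection neurons express them as well. Vip, the peptide of a class of cortical interneurons, fell, from 29.7, 30.99 and 39.7 in air to 20.2, 18.5, 24.99, 16.4 and 20.3 with nicotine. Sst, which marks another class, was at 158, 176 and 191 and 171, 154, 155, 140.2 and 170.1 and was not called. All Vip values with nicotine lay under the air range, those of Sst within or close to it. The count of 4 was between 0 and 2 without air 2, 5 or 6 or nicotine 1, 2, 5 or 6 or nicotine-free 4, and 8 without nicotine replicate 3 or nicotine-free 1. Of 12 genes of olfactory bulb and migrating neuroblasts and 14 of the hippocampus none was called, with medians of 0.07 and -0.04.

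Few genes of non-neuronal cells other than oligodendrocytes were called. Of 16 microglial and 16 endothelial and mural genes none was called and none had an unadjusted p below 0.05, with medians of 0.05 and -0.008. Cx3cr1, the fractalkine receptor of microglia, was at 134.5, 156 and 163 in air and 149, 127, 181, 142 and 155 with nicotine, and Cldn5, the tight junction protein of brain endothelium, at 108, 132 and 164 and 154, 114, 164, 107 and 113. The same held for 16 genes of meninges and fibroblasts (median 0.12). Of 16 astrocyte genes 1 rose (6.25%, with 4.29% of all genes tested called), Itih3, a hyaluronan-binding protein (1.27 ± 0.29 (SE)), with replicate 3 within air. Gfap, the filament protein of astrocytes, was at 162, 233 and 326 in air and 235, 266, 206, 278 and 299.8 with nicotine. None of 12 choroid plexus and ependymal genes was called, but their spread was large: Ttr, transthyretin, reached 268 CPM in air replicate 3, against a median of 1.89 in air and 1.44, 5.56, 0.989, 0.965 and 0.323 with nicotine. Of 10 blood genes 2 passed the filter and neither was called.

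Of the genes of the synapse that were called most were lower with nicotine. Of 28 genes of the transmitter release machinery 4 fell (14.3%, against 2.32% of all genes tested) and none rose. In this list 22 of the 28 were below 0 (median log2 fold change -0.22). Syn1 and Syn2 encode synapsins, which tether vesicles: Syn1 was at 735, 812 and 869 in air and 616, 617, 696, 628 and 634 with nicotine, a small shift with no overlap. Doc2a, a calcium sensor of release (-0.47), and Rims1, an organizer of the active zone (-0.67), fell further. The synaptotagmins, calcium sensors of vesicle fusion, had 3 of 16 lower: Syt13 (-0.36), Syt16 (-0.37) and Syt17 (-0.46). The release list had 8 calls without nicotine-free replicate 1, and 1 or 2 without any of air 1, 2, 4, 5 or 6, nicotine 1, 2, 5 or 6 or nicotine-free 3, 4 or 5.

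On the receiving side, 1 of 7 NMDA receptor subunits fell, Grin2a, from 9.22, 13.6 and 16.0 in air to 6.48, 7.10, 8.18, 8.99 and 4.81 with nicotine (-0.88 ± 0.15 (SE), adjusted p = 0.00216). Grin1 had -0.25 ± 0.06 (SE) and Grin2b -0.82 ± 0.23 (SE), and neither passed (adjusted p = 0.0134 and 0.0286). No AMPA or kainate receptor subunit of 9 and no metabotropic glutamate receptor of 7 was called. Of 21 postsynaptic scaffolds and CaMKII subunits 1 fell, Camk2g (-0.31), and the median was -0.24. The share called, 4.76%, was near the 4.29% of all genes tested. None of the 21 was called without nicotine replicate 1 or 2, and 8, 5 and 3 were called without nicotine 3, nicotine-free 1 and nicotine-free 2. Adhesion proteins across the synapse showed 4 of 28 lower and none higher (median -0.20). Lrfn5 (-0.37), Lrrc4 (-0.41) and Slitrk1 (-0.43) were among those that fell. The count was 2 without nicotine replicate 2 and 7 without air replicate 1. Protocadherins, which give neurons surface identities, had 6 of 68 lower (8.82%, against 2.32% of all genes tested) and none higher (median -0.12). Pcdh7, the clearest of them, was at 183, 206 and 229.6 in air and 138, 154, 159, 154 and 139 with nicotine, and Pcdhac2, Pcdh1, Pcdh20, Pcdhgc5 and Pcdha12 were the others. Without air 6, nicotine 1 or nicotine 6 the count of 6 was 3. The clustered protocadherins share exons, and reads from these could not be assigned to single members. Of 21 classical cadherins none was called.

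Inhibitory receptors changed in a few members. Of 14 GABA-A receptor subunits 1 fell, Gabra3, from 169, 177 and 197 in air to 153, 144, 146, 151 and 144 with nicotine. Of 6 genes of the GABA-B receptor and its partners 2 fell, Gabbr2, the subunit that couples to G proteins, from 165, 179 and 198 to 123.01, 120.3, 139.7, 122 and 112, and Kctd16. Both Gabbr2 and Kctd16 stayed called with each library left out in turn. The channels that GABA-B receptors open are among the potassium channels described below.

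Of 12 nicotinic receptor subunits, the direct targets of nicotine, none was called by edgeR, 1 was by DESeq2 and 3 had an unadjusted p below 0.05 (median log2 fold change -0.10). Over all genes tested, 4258 of 15158 had an unadjusted p below 0.05. Chrna7, which forms homomeric receptors, was at 11.9, 13.4 and 15.9 in air and 13.8, 12.5, 11.3, 12.5 and 10.2 with nicotine, and Chrna5, an accessory subunit of deep-layer neurons, at 2.01, 2.16 and 2.54 and 1.87, 1.44, 2.02, 1.45 and 1.46. The groups overlapped for both, and the log2 fold changes were -0.18 ± 0.09 (SE) and -0.43 ± 0.18 (SE). Of the 5 muscarinic receptors Chrm1, the main one of pyramidal cells, fell (-0.36 ± 0.08 (SE)), while Chrm4, common in striatal neurons, was at 57.1, 64.9 and 68.4 in air and 80.4, 88.9, 75.2, 69.1 and 79.0 with nicotine and did not pass (adjusted p = 0.0265).

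Among the monoamine systems, 3 of 13 genes of dopamine receptors and synthesis rose and none fell (median 0.65). They were Ddc, the decarboxylase that makes dopamine (7.13, 9.06 and 9.59 in air, 16.3, 14.2, 13.2, 13.5 and 14.2 with nicotine), the receptor Drd5 (0.92) and Ppp1r1b. The 3 calls were lost without nicotine 1, and 1 gene was called without nicotine 2 or 6. Of 12 serotonin receptors 1 fell, Htr5a (-0.44). Of 9 adrenergic receptors 2 fell, Adra1d and Adrb3 (-0.96), of which Adra1d was at 17.8, 31.01 and 44.9 in air and 13.97, 5.87, 20.04, 8.82 and 4.12 with nicotine. Nicotine replicate 3 was within the air range for Adra1d, and the gene was called in 3 of the 16 fits with 1 library left out. Of 16 opioid and cannabinoid genes 2 fell, Napepld (-0.35) and Dagla (-0.39), enzymes that make endocannabinoids and related lipids.

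Peptides and growth factors moved in both directions. Of 22 neuropeptides 3 rose (Gal, Tac1 and Nts, neurotensin, 0.93) and Vip fell, where Gal passed the filter only through the exposed groups. Of 16 neurotrophins, GDNF family members and receptors 3 rose and 2 fell. Bdnf, brain-derived neurotrophic factor, was at 35.9, 42.9 and 47.6 in air and 18.3, 23.5, 29.7, 24.7 and 27.5 with nicotine, a log2 fold change of -0.78 ± 0.11 (SE) (adjusted p = 0.000816). Each nicotine sample was below each air sample, and Bdnf was called in all 16 fits with 1 library left out. Gdnf, a factor for dopamine and other neurons, was at 0.655, 1.28 and 2.06 and 2.26, 3.604, 2.34, 2.98 and 3.72 (1.20 ± 0.24 (SE)), a low level in both groups. Sort1, a sorting receptor of neurotrophins, fell (-0.35), and Ngfr rose as described above. The count of 5 was 1 without air 5 or 6 or nicotine 2 or 6 and 2 without air 2 or 4 or nicotine 1 or 5. The neuropeptide count of 4 was 0 without nicotine 2, 1 without air 6 or nicotine 1 and 2 without air 2 or 5 or nicotine 6.

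Most of the ion channel genes called were lower with nicotine as well. Of 80 potassium channel genes 10 fell and 1 rose, 13.75% against 4.29% of all genes tested (median log2 fold change -0.12). Kcnj3 (-0.67), Kcnj6 (-0.78) and Kcnj9 (-0.64), subunits of channels opened by G proteins, were among those that fell, and Kcnj9 was at 44.5, 56.3 and 71.3 in air and 35.6, 33.1, 41.8, 37.7 and 31.2 with nicotine. Kcns1, a modifier of voltage-gated channels, was at 16.0, 19.8 and 30.96 and 9.27, 9.78, 15.1, 11.2 and 8.37 (-1.01 ± 0.19 (SE)). Kcnt2 (-0.83), Kcnv1 (-0.72), Kcnk4 (-0.93), Kcnq3 (-0.45), Kcnma1 (-0.43) and Kcnh7 (-0.90) complete the 10, and Kcna5 rose (0.71). With 1 library left out up to 15 of the 80 were called, and between 2 and 6 without air 2, 4, 5 or 6 or nicotine 1, 2 or 6. Of 35 sodium and calcium channel genes 4 fell and 1 rose: Cacna1b, the N-type channel that feeds release, was at 70.2, 75.4 and 82.3 in air and 61.1, 62.5, 56.1, 58.0 and 51.1 with nicotine, Cacna2d1 (-0.45), Cacna1g (-0.42) and Scn7a (-1.08) fell, and Cacna2d2 rose (0.80). That count of 5 was 2 without nicotine 2 or 6, 3 without air 5 or 6 or nicotine-free 4 or 5, 8 without nicotine-free 2 and 9 without nicotine 3.

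Calls among genes of intracellular signaling are given beside the 4.29% called of all genes tested. Of 19 RGS proteins Rgs9 alone was called (5.26%), near that share. Of 28 phosphodiesterases and adenylate cyclases Pde1c (0.60) and Pde8a (0.35) rose and Adcy9 fell (-0.38), 10.7% of the list. Of 9 protein kinase C isoforms Prkcq rose (0.34), 11.1% of the list. No member of 20 immediate early genes, which report recent neuronal activity, was called, with a median of 0.01.

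**Figure D5:**
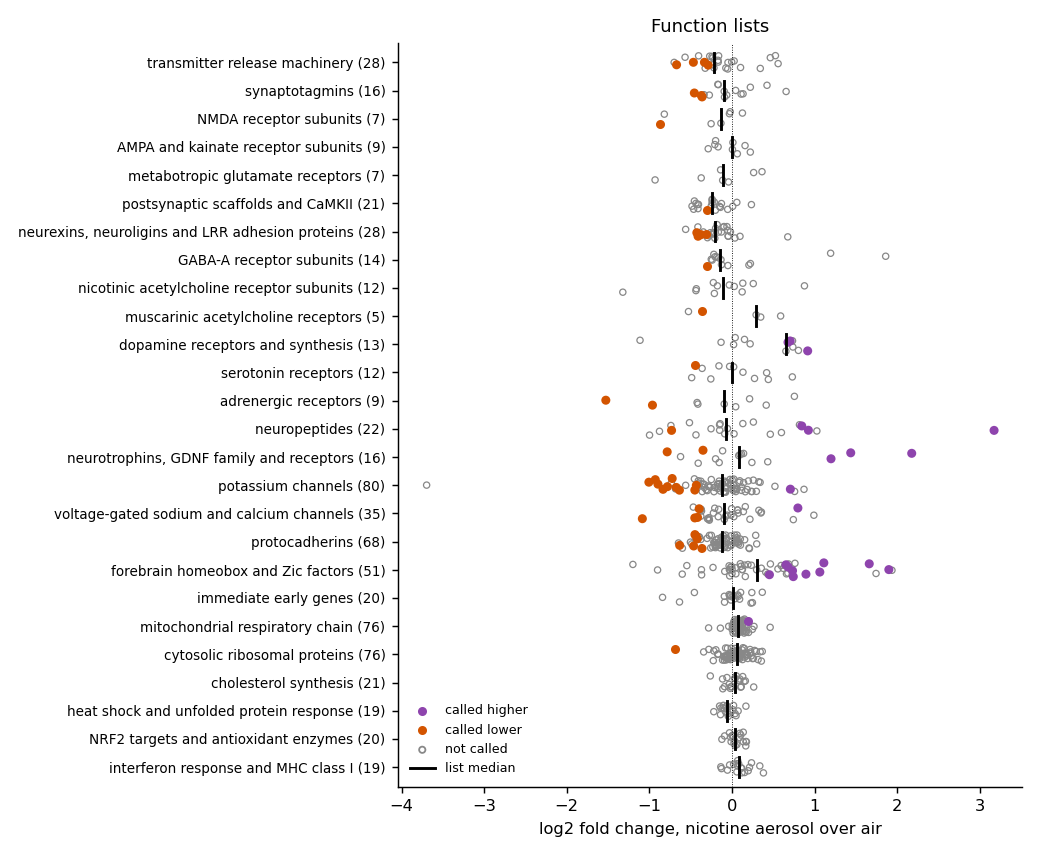
Log2 fold change of nicotine aerosol over air (x axis) of each tested member of 26 of the 58 function lists (rows, number of members in brackets). Filled points were called, open points were not, bars are list medians and the dotted line is the median of all genes tested. Potassium channels and synaptic lists hold filled points mainly on the left, and homeobox and dopamine lists on the right.

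Genes that guide axons changed in both directions. Of 31 semaphorins and plexins 3 rose, Sema6a (0.45), Sema4d (0.31) and Plxnb3 (0.56), and Sema4f fell (-0.28). Of 20 netrins, slits and receptors Ntn1, an attractant, rose from 27.1, 34.3 and 41.2 in air to 56.7, 54.9, 44.8, 45.9 and 52.0 with nicotine, while Ntn5 (-1.66) and the receptors Unc5a (-0.34) and Unc5d fell. Of 22 ephrins and Eph receptors Efnb3, a midline repellent also made by oligodendrocytes, rose (0.56), a share of 4.55%, near the 4.29% of all genes tested. Of 33 Wnt ligands and receptors Wnt2 (0.59) and Wnt3 (0.60) rose and Wnt9a fell (-1.16). Of 19 FGF genes Fgf1 rose (0.28) and Fgf5 (-0.84) and Fgf13 (-0.45), an intracellular partner of sodium channels, fell. Of 36 BMP and TGF-beta genes Bmp4 rose and Bmp3 (-0.84) and Smad3 (-0.25) fell, and of 17 genes of the Notch pathway none was called. With 1 library left out these counts were often lower. The FGF count of 3 was 0 without air 6 or nicotine 2 or 6 and 1 without nicotine 1 or 5, and the Wnt count of 3 was 0 without nicotine 2 and 1 without air 2, 5 or 6 or nicotine 1 or 6. The netrin count of 4 was 2 without nicotine 1 or 2, the semaphorin count of 4 was 2 without air 2, 3, 4, 5 or 6 or nicotine 2, 5 or 6, and the BMP count of 3 was 1 without air 4, 5 or 6, nicotine 1, 2 or 6 or nicotine-free 2, 3, 4 or 5.

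Homeobox and Zic transcription factors of the forebrain had 10 of 51 genes higher and none lower (median 0.30). Lhx8, Six3, Isl1, Dlx5, Zic1, Nkx6-2 and Foxp2 have been named above, and Nkx2-9 (1.66) and Pbx3 (0.65) rose as well. Six3 was at 6.61, 16.0 and 19.5 in air and 29.6, 34.6, 27.9996, 29.0 and 25.5 with nicotine, and Zic1 at 13.0, 17.5 and 20.3 and 38.03, 35.4, 21.6, 36.01 and 26.8. Both were above the air range in every nicotine sample, Zic1 by a small margin in replicate 3. Without nicotine replicate 2 none of the 51 was called. The count was 2 or 3 without air 2, 5 or 6 or nicotine 1, 5 or 6, 4 or 6 without air 1 or 4 or nicotine-free 3, 4 or 5, and 16 without nicotine-free 1. Of 17 retinoic acid genes Cyp26b1, which degrades retinoic acid, fell (-0.90 ± 0.21 (SE)).

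Few housekeeping and stress genes were called. Of 76 subunits of the mitochondrial respiratory chain 73 had a log2 fold change above 0, but the median was 0.08 and 1 was called, Sdhc of complex II, from 107, 113 and 116 in air to 129.7, 126, 124.04, 122 and 139 with nicotine. Of 76 cytosolic ribosomal protein genes 1 was called, Rpl28, at only 1.72, 1.85 and 2.10 in air, and copies of such genes share reads, so its value is uncertain. None of 37 proteasome subunits, 21 genes of cholesterol synthesis, 19 of heat shock and the unfolded protein response or 20 NRF2 targets and antioxidant enzymes was called, with medians between -0.06 and 0.04. The same held for 19 interferon and MHC class I genes (median 0.08), 13 of inflammatory cytokines and NF-kappaB (0.07), 16 stress hormone genes (-0.05), 17 clock genes (-0.06), 13 DNA methylation genes (0.06), 12 thyroid hormone genes (-0.18), 14 insulin-like growth factor genes (-0.03) and 18 neurofilaments and microtubule-associated proteins (-0.02). The corticotropin-releasing hormone receptor Crhr1 came nearest to a call among the stress genes (-0.58 ± 0.14 (SE), adjusted p = 0.011).

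The remaining lists had 1 or 2 calls each. In those given here the share called ran from 2.22% (kinesins and dyneins) to 11.1% (histone deacetylases and acetyltransferases), against 4.29% of all genes tested. Aldh9a1 rose among 14 genes of aldehyde and xenobiotic metabolism (0.27), Srd5a1, which makes neurosteroids, among 11 of steroid signaling (0.33), Hapln2, a link protein of the nodes of myelinated axons, among 16 of brain matrix (0.65), and Slc6a9, a glycine transporter, among 16 nutrient transporters (0.60). Among 18 histone deacetylases and acetyltransferases Sirt2, the main deacetylase of oligodendrocytes, rose from 132, 144 and 149 in air to 187, 176, 182, 172 and 203 with nicotine, and Hdac4 fell (-0.39). Of 26 zinc transporters and metallothioneins Slc39a10 (-0.56) and Slc30a4 (-0.32) fell, as did Kif3c of 45 kinesins and dyneins (-0.24) and Col19a1 of 43 collagens (-0.67). Over the 25 lists without a call, 81 of 385 genes had an unadjusted p below 0.05, against 4258 of all 15158 genes tested. DESeq2 called 12 of the 385 and limma-voom 9. In all, 144 of the 651 called genes belonged to a list, 57 of them to a marker list, and 507 to none.

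The genes that fell had higher medians of length and level than the rest. In the mm9 annotation, the median gene span was 69.2 kb for the genes that fell, 25.97 kb for those that rose and 24.04 kb for all genes tested. Their exons summed to a median of 5137, 3670 and 3710 bases, and their median level was 72.07, 31.16 and 20.44 CPM. CPM is not corrected for length, and higher counts make a gene easier to call. At least 93.3% of each set had an annotation. Of the genes named in this text, 71 of 175 with a position overlap a gene on the other strand, and since the strand setting of the counting is not given in the sources used here, reads of the pair cannot be told apart.

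A direct test between aerosol with and without nicotine called no gene. In edgeR, 1267 genes (8.36%) had an unadjusted p below 0.05, the smallest adjusted p was 0.574, and 62 of the 651 genes above had an unadjusted p below 0.05. DESeq2 called none either. The 5 nicotine-free samples had Chat at 10.4, 19.5, 24.1, 13.98 and 20.98 CPM and the 5 nicotine samples at the values above, a log2 difference of -0.42 ± 0.27 (SE) between nicotine and nicotine-free. Mbp was at 5384, 7699, 7577, 5984 and 6579 without nicotine (0.16 ± 0.10 (SE)). Bhlhe22, at 44.0, 39.2, 52.5, 45.3 and 40.6 without nicotine, was lower with nicotine in all 5 samples (-0.47 ± 0.11 (SE)), and Prr5l, at 22.4, 27.2, 24.3, 24.1 and 26.3, was higher by 0.22 ± 0.05 (SE), both with an adjusted p of 0.574. For Chat and Mbp the intervals of 2 SE on either side of the difference included 0. The nicotine-free group shared its air controls with the comparison above.

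The 6 offspring labeled male of the nicotine group, replicate 21 among them, and the 6 of the air group had the exposures of the females. They were sequenced in a run of their own, so that sex and run cannot be told apart. Below, males means the offspring labeled so. In the males, with replicate 21 kept in, 632 of the 651 genes (97.08%) had a fold change in the direction found in females, against 72.37% of all genes tested in both. The difference between females and males in the change with nicotine was called for no gene (978 genes, 6.47%, at an unadjusted p below 0.05, smallest adjusted p 0.0978), and for 1 gene by DESeq2. Without the library labeled male that went against its label it was called for no gene by edgeR either, with 914 at an unadjusted p below 0.05. The median size of the log2 fold change of the 651 genes was 0.152 in males, also with replicate 21 kept in, but these genes were chosen by their values in females. The test of the difference gave -0.82 ± 0.22 (SE) for Bhlhe22, 0.58 ± 0.15 (SE) for Mbp and 0.76 ± 0.37 (SE) for Chat, females minus males on the log2 scale, and none passed after adjustment (adjusted p = 0.349, 0.335 and 0.765).

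A panel of 7 genes was measured by qPCR in the male offspring of the study, chosen from these RNA-Seq data, and its direction is therefore not independent evidence. In the females 6 of the 7 were called: Ngfr, Chat, Gal and Gdnf rose and Bdnf and Adra1d fell. Gal passed the filter on low counts only through the exposed groups. The last, Tbr1, a transcription factor of deep-layer cortical neurons, was at 149.5, 205 and 213 in air and 112, 107, 151, 127 and 125 with nicotine. Its log2 fold change was -0.61 ± 0.19 (SE) with an adjusted p of 0.0403, and replicate 3 overlapped with air. The count of 6 was 2 without air 5 or 6 or nicotine 2, and 3 without air 4 or nicotine 1 or 6.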

How the data were processed

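Single-end RNA-Seq reads were mapped by the authors to the mm9 mouse transcriptome with Bowtie, PCR duplicates were removed with SAMtools and reads were counted per gene with HTSeq. The authors deposited raw read counts per gene for 23366 genes and each sex, and these were used here as deposited. Further tables, of values normalized by the authors, were not used. A total of 1 column of the female table matched no labeled sample and was left out, and 27 gene names that had been turned into dates were kept as they stand. Samples were grouped by their titles.

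Genes were kept when their CPM summed to at least 5 over the 16 female samples. Air, nicotine and nicotine-free females were fitted together in edgeR 4.0.16 (R 4.3.3, TMM scaling) and tested by quasi-likelihood, with Benjamini-Hochberg adjustment over all genes tested and a threshold of 0.01. Fold changes are on the log2 scale as estimated by the fit. A prior count of 1 was used only for the log2 CPM behind the list scores and the principal components. All tests were two-sided. The difference between the sexes was tested as an interaction in 1 fit of the 6 groups over 15105 genes. The 3 tools were checked on simulated counts. Alternatives were DESeq2 1.42.0, limma 3.58.1 (voom), other scalings and filters, thinned counts, a cortical score as covariate, a block for the replicate number and each library left out.

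The genes named are the 10 higher and 10 lower with the smallest p, the 5 higher and 5 lower called genes with the largest fold change at a mean of at least 1 CPM, the 4 members of each list with the smallest p and the 7 genes of the qPCR panel. Further called members of lists, and markers given for comparison, were chosen after their values were seen. The lists and the comparison were chosen with earlier results of these data known. A few genes that the rule would name are not reported here.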

Additional observations from a re-analysis of the deposited data

Results flagged for a closer look

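Over the genes named above and some further genes not named, 400 sets of values (1 gene in the 6 air or the 5 nicotine samples) were examined. A sample that stood far from the rest of its group by Dixon's criterion was sought, and 19 such values were found. Chance gives about 1 in 20, or 20 here. Among the air samples, replicate 2 stood apart most often, with Avp at 3.62 CPM, Gal at 0.357, Ntn5 at 2.41, Tmem145 at 26.4, Tspan11 at 11.4, Bmp3 at 11.6 and Xist at 119. Avp, Gal, Ntn5, Tmem145 and Tspan11 were above the other air samples, and Bmp3 and Xist were below. Air replicate 1 was high for Cyp26b1 (45.004 CPM) and Sema6a (61.0), air replicate 6 was low for Drd5 (2.53), air replicate 4 was low for Ildr2 (205), and air replicate 3 was high for Ttr, the transport protein of thyroid hormone made by the choroid plexus (268, against a median of 1.65 in the other air samples). Among the nicotine samples, replicate 3 was high for Col19a1 (15.5 CPM), Kcnk4 (7.91), Lingo1 (373) and Syn1 (696), which lies on the side of the air values in each case. Nicotine replicate 2 was low for Camk2g (152) and high for Ttr (5.56), and nicotine replicate 6 was low for Slitrk1 (89.8).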

How the results depend on the processing

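The count of 651 genes changed by nicotine aerosol was 1319 with DESeq2 (551 higher, 768 lower) and 1012 with limma-voom and sample quality weights, and each of the 651 was among the calls of DESeq2. It lay between 567 and 641 with RLE or upper quartile scaling, no filter, a filter of 1 CPM in 5 samples, the 2 groups fitted alone or counts thinned to the smallest library. With 1 of the 16 libraries left out it ran from 226 (without nicotine replicate 2) to 920 (without nicotine replicate 3), and it moved by more than 1.5 times also without air replicate 2 (352), 5 (351) or 6 (304) or nicotine replicate 1 (279) or 6 (265). With the cortical score as a covariate 0 genes were called, and 1659 had an unadjusted p below 0.05, against 4258 in the main fit. The score itself differed between the groups, so the covariate also takes up part of the group difference. Under it the fold change of 8 named genes changed sign: Ache was at -0.0084, Chrm2 at -0.30, Chrna5 at 0.19, Itih3 at -0.023, Lingo1 at 0.0090, Rtn4r at 0.035, Slc17a7 at 0.19 and Tbr1 at 0.24, none of them called. List medians moved too, from 0.68 to 0.26 for myelin, from 1.41 to 0.29 for cholinergic genes and from 0.73 to 0.48 for striatal genes. That of protocadherins was -0.14, against -0.12 in the main fit. No other setting changed the sign of a fold change given above for nicotine against air.

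Replicate numbers are shared between the groups by label only. With the replicate number as a block 136 genes were called (81 higher, 55 lower), 133 of them among the 651, and 10 of 17 myelin genes, 1 of 14 cholinergic genes and 2 of 20 cortical genes stayed called. Deviations of same-numbered air and nicotine samples correlated at 0.0225 (replicate 1), -0.124 (2), -0.248 (3), 0.242 (5) and 0.0296 (6), and replicate 5 alone correlated best with its own number, so the numbers did not pair the samples.

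The difference between females and males was called for 1 gene by DESeq2 and for 0 genes in edgeR under each other setting run and with each library left out. The difference between nicotine and nicotine-free aerosol was called for 0 genes under every setting and with each library left out (776 to 2120 genes at an unadjusted p below 0.05). Thinning every library to the smallest one left 567 calls for nicotine against air.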
